A study of Mus musculus with 8 samples.

Results

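Hemogenic endothelium of the Runx1 knockout line iDamko was compared with that of the wild-type line iDam, with 2 libraries per line, so 4 of the 8 libraries of the study are described. The genes are all 622 rows of the authors' deposited table, and the 4 libraries were chosen by line name. Each gene was described by the log2 ratio of its line means and by whether both libraries of one line lay on the same side of both libraries of the other. The line Ainv18ko, the other Runx1 knockout, and the line BryGFP, the other wild type, serve only as a second pair to set values against.

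RUNX1 is a transcription factor that hemogenic endothelium needs to turn into blood cells. In this step, the endothelial-to-hematopoietic transition, cells of the vessel wall lose endothelial features, let go of their neighbours and matrix, and switch on blood genes. Without RUNX1 the embryo forms early primitive red cells but no definitive blood stem cells, and the repressors GFI1 and GFI1B are known to act downstream of RUNX1 in shutting off endothelial genes.

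All 4 lines are mouse embryonic stem cells of strain 129, differentiated in culture. Per the labels' protocols, FLK1-positive cells from embryoid bodies spent 2 days in blast culture with VEGF and IL6, and cells carrying cKIT and TIE2 but not CD41 were sorted. The design text writes iDamko as iDam with runx1-/- and gives each line biological duplicates. The labels do not say how many clones a knockout line represents, whether iDamko was made directly from iDam, or what the Dam and GFP in the line names drive. RNA was total RNA depleted of ribosomal RNA, so noncoding RNAs were measured along with messenger RNAs.

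Depths implied by the lowest values were 46980000 and 58920000 reads in iDamko and 53100000 and 42280000 reads in iDam, and the iDamko depths rest on only 4 and 5 low values. Runx1 and the sort markers Kit, Tek, Itga2b and Kdr were not analysed here, so neither the knockout nor the sort was checked on its own transcript. Of 45 endothelial markers only 4 are among the 622 genes, so the cell type is that of the labels. Levels are RPKM, reads scaled to gene length and library depth, which can be set against each other between genes. The authors kept a gene only if it passed their own threshold in 4 knockout libraries against iDam and again against BryGFP, in the same direction. The 622 genes were thus chosen on these libraries, and a test of iDamko against iDam within them says only how large a difference is beside the spread between libraries.

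iDamko and iDam libraries separated in 619 of 622 genes (99.5%), with iDamko lower in 384 (61.7%) and higher in 235 (37.8%). The 3 genes with overlapping libraries were Mc5r, Fgf1 and Gm14799, none of which reached 1 RPKM in either line mean. The gap between the nearest libraries was at least 1.5-fold in 365 of the 384 lower genes and 200 of the 235 higher ones. An exact permutation test of 2 libraries against 2 cannot go below a two-sided p of 0.333 for a single gene. The 360 genes that averaged 1 RPKM or more across all 8 libraries were therefore tested in one limma model with a spread shared over the 4 lines, on log2(RPKM + 1). At a Benjamini-Hochberg adjusted p under 0.05, 357 of 360 (99.2%) passed, 203 lower (56.4%) and 154 higher (42.8%) in iDamko. With the libraries quantile-normalized, 132 were lower and 151 higher, and 508 of the 622 genes separated, 258 lower and 250 higher. This step gives every library the same distribution of values, here within genes chosen for differing and mostly lower. It moves the directions towards balance by its design, so it cannot show which balance is right. The genes of both directions are shown in the plot of levels.

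**Figure D1:**
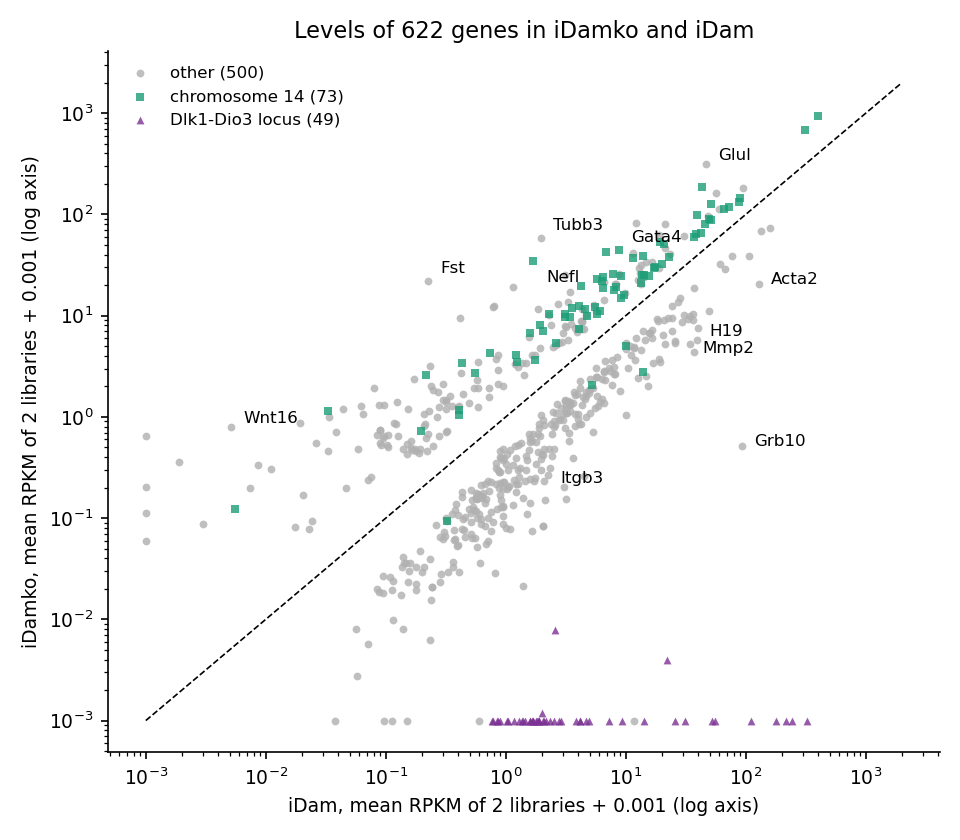
Mean level of each of the 622 genes in iDamko (vertical axis) and iDam (horizontal axis), as RPKM plus 0.001 on log axes, each the mean of 2 libraries, with equality as a dashed line. Most chromosome 14 genes lie above the line, and the 49 noncoding RNAs of the Dlk1-Dio3 locus lie at or near the floor in iDamko.

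Among genes tested, the lower ones had a median level of 1.29 RPKM in iDamko and 4.97 RPKM in iDam. The higher ones had 12.3 RPKM in iDamko and 4.32 RPKM in iDam. The median fold was 3.32 for the lower genes and 2.47 for the higher genes, and 88 lower and 40 higher genes differed by more than 4-fold.

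All 4 endothelial marker genes in the table fell in iDamko, by 4.43-fold to 5.85-fold, beside 61.7% lower over all genes. Acvrl1, the endothelial type I receptor ALK1 for BMP9 and BMP10, had 7.35 and 7.83 RPKM in iDamko libraries, against 39.0 and 41.0 RPKM in iDam libraries. The tight junction gene Cldn5 had 4.00 and 2.88 RPKM in iDamko, against 22.5 and 15.7 RPKM in iDam. The endothelial lectin gene Clec14a had 2.23 and 2.84 RPKM in iDamko, against 17.2 and 12.5 RPKM in iDam. No library of either line came near the range of the other in these genes. Aplnr, the apelin receptor, had 13.7 and 8.50 RPKM in iDamko, against 45.2 and 52.9 RPKM in iDam. The log2 differences by limma were −2.25 ± 0.22 for Acvrl1 (SE; adjusted p = 3.83e-05) and −2.08 ± 0.40 for Aplnr (SE; adjusted p = 0.00133). The summed level of the 4 genes was 27.2 and 22.1 RPKM in iDamko, against 124 and 122 RPKM in iDam. In bulk samples such as these, fewer cells of a type and less RNA per cell cannot be told apart.

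Of 7 blood transcription factor genes measured, 6 were lower in iDamko, beside 61.7% of all genes. Gfi1 had 0.289 and 0.198 RPKM in iDamko, against 1.80 and 1.40 RPKM in iDam, 6.58-fold lower in iDamko. The log2 difference of Gfi1 by limma was −1.06 ± 0.17 (SE; adjusted p = 0.000431), a call that quantile normalization ended (adjusted p = 0.19). The homeobox gene Hoxb4, known for its effect on blood stem cell expansion, had 0.862 and 1.03 RPKM in iDamko, against 3.246 and 2.35 RPKM in iDam. Hoxb4 fell by 0.96 ± 0.26 on the log2 scale (SE; adjusted p = 0.00686), a call that quantile normalization also ended (adjusted p = 0.347). Hoxa9 and Gata3 were below the level for testing. Hoxa9 was listed at 0.0095 and 0.0473 RPKM in iDamko, against 0.467 and 0.348 RPKM in iDam. Gata3 had 0.506 and 0.179 RPKM in iDamko, against 1.30 and 0.698 RPKM in iDam. The 1 gene that rose was Elf1, named after its values were seen, an ETS factor gene on chromosome 14.

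Homeobox genes of 3 clusters shared this direction. The table held 3 HoxA, 7 HoxB and 6 HoxD genes, and in all of them both iDamko libraries lay below both iDam libraries, beside 61.7% of all genes. Of the HoxC cluster it held none. Among the HoxD genes, Hoxd8 had 3.17 and 1.67 RPKM in iDamko, against 13.99 and 11.04 RPKM in iDam, and fell by 2.01 ± 0.25 on the log2 scale (SE; adjusted p = 0.000112). Most others stayed under the testing level, such as Hoxb7 at 0.025 and 0.0924 RPKM in iDamko, against 0.738 and 0.687 RPKM in iDam. Cdx2, a caudal factor upstream of Hox genes, had 0.0282 and 0.0976 RPKM in iDamko, against 0.808 and 0.293 RPKM in iDam.

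**Figure D2:**
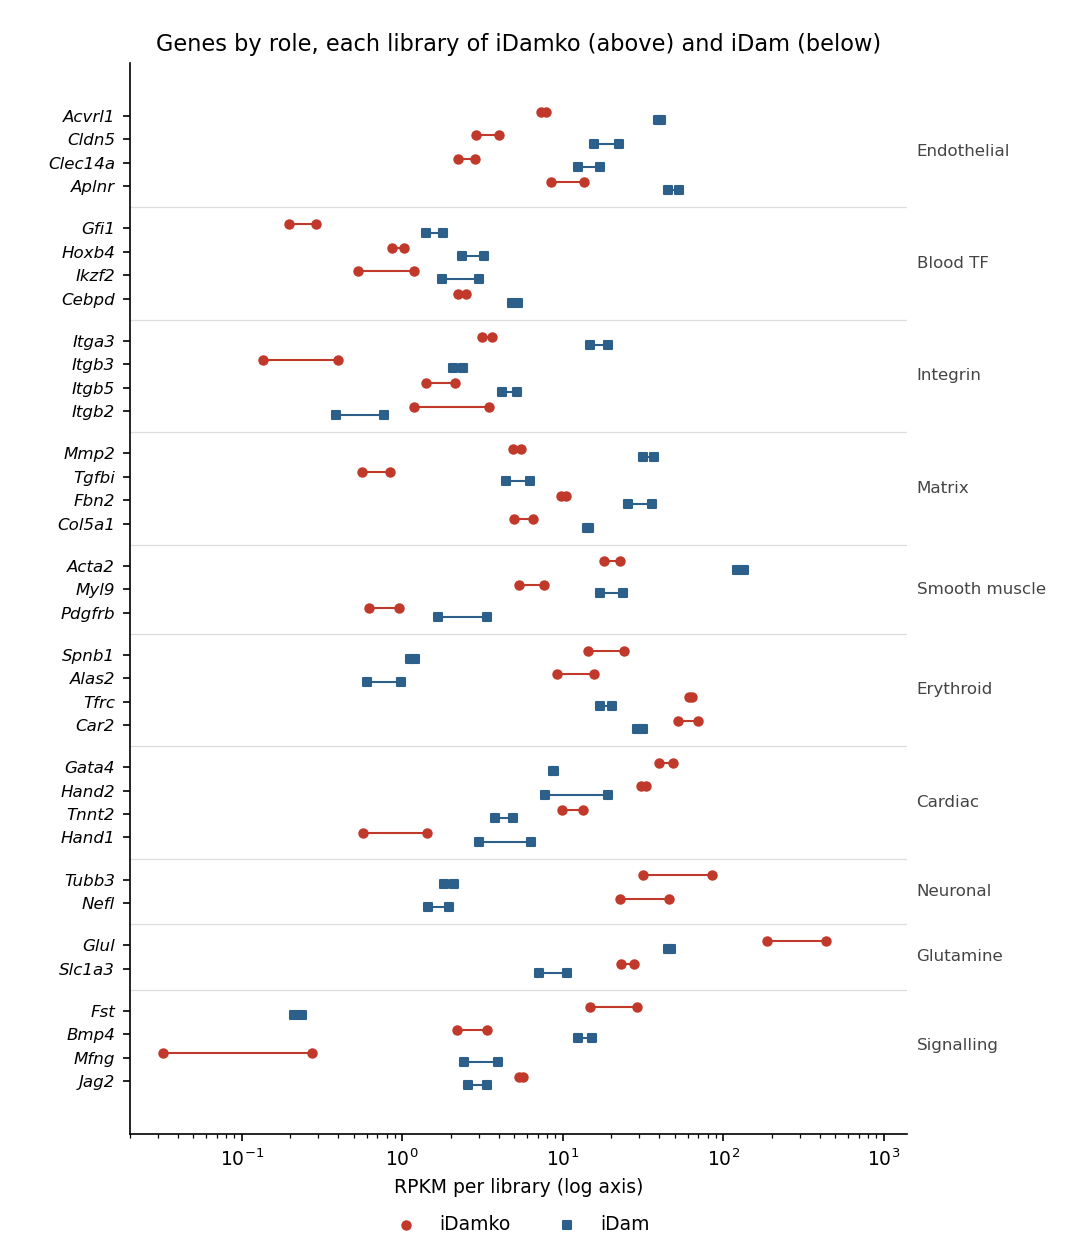
RPKM of each library on a log axis for genes grouped by role, with iDamko (red circles) above iDam (blue squares) in each row and a line joining the 2 libraries of a line. The libraries of the lines do not overlap for any gene shown.

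Of 4 integrin genes, Itga3, Itgb3 and Itgb5 fell and Itgb2 rose. Itga3, which encodes a laminin-binding subunit, had 3.12 and 3.61 RPKM in iDamko, against 14.8 and 19.03 RPKM in iDam. Itgb3, the beta subunit shared by the vitronectin and platelet fibrinogen receptors, had 0.400 and 0.136 RPKM in iDamko, against 2.40 and 2.08 RPKM in iDam, 8.36-fold lower in iDamko. Itgb2, the beta subunit of leukocyte integrins, went the other way, with 3.47 and 1.19 RPKM in iDamko, against 0.768 and 0.389 RPKM in iDam (log2 difference 1.00 ± 0.37, SE; adjusted p = 0.0261). Its iDamko libraries lay further apart than the nearest libraries of the lines did, and its call was lost with a pseudocount of 5 and without the iDamko library numbered 1 or the iDam library numbered 2. All 4 genes of the cell-cell adhesion list fell, beside 61.7% lower over all genes. They included Cldn5 and Clec14a, also counted among the endothelial markers above. The protocadherin gene Pcdh18 had 1.62 and 1.92 RPKM in iDamko, against 4.06 and 3.34 RPKM in iDam. The Pcdh18 call was lost under quantile normalization (adjusted p = 0.325) and without the library numbered 1 of either line.

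All 10 structural matrix genes and all 12 genes of matrix proteases and their inhibitors had lower levels in both iDamko libraries, beside 61.7% of all genes. Of these, 6 matrix and 8 protease genes were above the testing level, and all 14 fell, beside 56.4% of all genes tested. Median log2 differences were −1.25 for the matrix list and −0.999989 for the protease list, beside −0.79 over all 360 genes. The gelatinase gene Mmp2 had 4.88 and 5.52 RPKM in iDamko, against 36.8 and 31.6 RPKM in iDam, 6.57-fold lower in iDamko. The matrix protein gene Tgfbi had 0.839 and 0.561 RPKM in iDamko, against 6.27 and 4.41 RPKM in iDam, and fell by 1.89 ± 0.32 on the log2 scale (SE; adjusted p = 0.000672). The metalloproteinase inhibitor gene Timp3, named after its values were seen, fell too: it had 6.88 and 6.43 RPKM in iDamko, against 17.1 and 15.0 RPKM in iDam. The secreted protease gene Adamts12 was nearly undetected in iDamko, at 0.00512 and 0.00544 RPKM, against 0.290 and 0.172 RPKM in iDam.

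Among the 11 actin and migration genes, 8 were lower (72.7%) and 3 higher, near the 61.7% lower over all genes. Nedd9, a scaffold of focal adhesions, had 0.558 and 1.16 RPKM in iDamko, against 3.56 and 4.54 RPKM in iDam. Lcp2, the adaptor SLP-76 of blood cell signalling, had 0.203 and 0.0155 RPKM in iDamko, against 1.75 and 1.27 RPKM in iDam. The kinase gene Ptk2b rose to 3.27 and 3.45 RPKM in iDamko, against 0.501 and 0.366 RPKM in iDam. Of 15 guidance and angiogenic genes 9 were lower (60.0%), again near that share, 5 were higher and 1, Fgf1, overlapped. The netrin receptor gene Unc5c, singled out after its values were seen, had 4.15 and 6.95 RPKM in iDamko, against 26.8 and 24.6 RPKM in iDam. The ephrin receptor gene Epha7 rose, with 2.60 and 2.78 RPKM in iDamko, against 0.441 and 0.400 RPKM in iDam.

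Signalling genes moved both ways. Fst, the secreted activin antagonist follistatin, had the largest ratio of any gene tested that rose: 14.9 and 29.0 RPKM in iDamko, against 0.212 and 0.238 RPKM in iDam, 97.4-fold higher in iDamko. The iDamko libraries of Fst differed by nearly 2-fold, and both stood far above iDam (log2 difference 4.15 ± 0.45, SE; adjusted p = 5.90e-05). Bmp4, a mesoderm and blood inducer, had 2.20 and 3.36 RPKM in iDamko, against 12.5 and 15.2 RPKM in iDam, and fell by 1.98 ± 0.31 on the log2 scale (SE; adjusted p = 0.000408). In the BMP and TGF-beta list as a whole, 4 of 6 genes were lower and 2 higher, near the 61.7% lower over all genes.

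In the Notch pathway, the fringe glycosyltransferase gene Mfng fell to 0.276 and 0.0324 RPKM in iDamko, against 3.96 and 2.41 RPKM in iDam, 20.7-fold lower in iDamko. The feedback gene Nrarp fell 2.15-fold, with 3.29 and 3.91 RPKM in iDamko and 8.87 and 6.60 RPKM in iDam. The ligand gene Jag2 rose 1.86-fold, with 5.33 and 5.67 RPKM in iDamko and 3.37 and 2.56 RPKM in iDam, a call lost without the library numbered 2 of either line. Wnt genes split evenly, with 4 lower and 4 higher, 2 of the higher being rows with the symbol Fzd10 that may share reads. Wnt16 had 0.257 and 1.33 RPKM in iDamko, while iDam was listed at 0.0083 and 0 RPKM. The receptor gene Fzd3 rose to 3.86 and 4.58 RPKM in iDamko, against 0.785 and 0.681 RPKM in iDam.

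Of cytokine receptors, Il4ra fell to 7.52 and 10.6 RPKM in iDamko, against 35.8 and 36.9 RPKM in iDam, and Il1r1 rose to 1.37 and 1.76 RPKM in iDamko, against 0.846 and 0.596 RPKM in iDam. The Il1r1 call was lost without the library numbered 2 of either line. Both cell cycle genes in the table fell, beside 61.7% lower over all genes. The cyclin D1 gene Ccnd1 had 3.24 and 15.2 RPKM in iDamko, against 21.0 and 45.2 RPKM in iDam, a spread within each line of more than 2-fold, and its call was lost without the iDamko library numbered 1 or the iDam library numbered 2. The cell cycle inhibitor locus Cdkn2a had 1.83 and 1.73 RPKM in iDamko, against 7.47 and 10.6 RPKM in iDam.

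The list of interferon-inducible GTPase and Schlafen genes, which also holds GIMAP GTPase genes of lymphocytes, had 10 members in the table, all lower in iDamko, beside 61.7% of all genes. The 4 tested were Irgm1, an interferon-inducible GTPase gene, and Gimap4, Gimap5 and Gimap9, and all 4 fell; no Schlafen gene reached the testing level. Slfn5 had 0.256 and 0.151 RPKM in iDamko, against 3.05 and 3.06 RPKM in iDam. Slfn9 had 0.155 and 0.143 RPKM in iDamko, against 2.09 and 2.14 RPKM in iDam. Both belong to a family known for growth control in lymphoid cells and for antiviral activity, and the lines did not overlap in either gene. Gimap4, a GTPase gene of lymphocytes, had 3.50 and 3.95 RPKM in iDamko, against 16.9 and 21.1 RPKM in iDam (log2 difference −2.08 ± 0.24, SE; adjusted p = 7.08e-05). Of 69 myeloid and immune genes listed, 6 were in the table. Of these 5 were lower in iDamko (83.3%), beside 61.7% of all genes, and 1, Itgb2, was higher. The lysozyme gene Lyz2, a myeloid marker below the testing level, was listed at 0 in both iDamko libraries, against 0.588 and 0.594 RPKM in iDam.

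Erythroid genes went the other way: all 4 in the table, of 35 in the list, rose in iDamko, beside 42.8% of all genes tested. Spnb1, the erythroid beta spectrin, had 24.1 and 14.5 RPKM in iDamko, against 1.12 and 1.19 RPKM in iDam, 16.7-fold higher in iDamko. Alas2, the first enzyme of heme synthesis in red cells, had 15.6 and 9.15 RPKM in iDamko, against 0.981 and 0.603 RPKM in iDam. The transferrin receptor gene Tfrc had 61.4 and 63.7 RPKM in iDamko, against 20.4 and 17.1 RPKM in iDam. The summed erythroid level was 170 and 139 RPKM in iDamko, against 51.7 and 50.7 RPKM in iDam, with globin genes not analysed here. Most of that sum was Tfrc and Car2 in both lines. Car2 had 69.3 and 52.0 RPKM in iDamko, against 29.2 and 31.7 RPKM in iDam. The share of red cell precursors was not measured, and its part in these values was not tested.

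The 5 smooth muscle and mesenchyme genes in the table were lower in iDamko, beside 61.7% of all genes, with a summed level of 29.3 and 26.6 RPKM in iDamko, against 156 and 149 RPKM in iDam. Most of that sum was Acta2, smooth muscle actin, at 22.6 and 18.04 RPKM in iDamko, against 134 and 122 RPKM in iDam. Pdgfrb, the mural cell receptor, had 0.951 and 0.621 RPKM in iDamko, against 3.36 and 1.66 RPKM in iDam. The fall of Pdgfrb (log2 difference −0.94 ± 0.30, SE; adjusted p = 0.0128) was no longer called after quantile normalization (adjusted p = 0.576). It was also lost without the iDamko library numbered 2 or the iDam library numbered 1.

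Of 7 cardiac genes 5 were higher and 2 lower in iDamko, beside 37.8% higher over all genes. Gata4, a cardiac and endoderm transcription factor gene on chromosome 14, rose to 39.5 and 48.8 RPKM in iDamko, against 8.67 and 8.87 RPKM in iDam. Hand1 fell to 1.42 and 0.567 RPKM in iDamko, against 6.37 and 3.00 RPKM in iDam, a call that quantile normalization ended (adjusted p = 0.0675). Isl1, a second heart field factor below the testing level, had 0.024 and 0.0318 RPKM in iDamko, against 0.858 and 0.762 RPKM in iDam. Of the endoderm list, Foxa2, a definitive endoderm factor, had 1.23 and 1.39 RPKM in iDamko, against 0.0948 and 0.0974 RPKM in iDam, while Trf and Dab2 fell. The transferrin gene Trf had 1.25 and 1.29 RPKM in iDamko, against 6.39 and 5.41 RPKM in iDam, the opposite of its receptor gene Tfrc.

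Of 4 neural genes measured, 3 were higher in iDamko and 1, Nnat, was lower, beside 37.8% higher over all genes; of the 3 tested, Tubb3 and Nefl rose and Nnat fell. Tubb3 (ENSMUSG00000062380; GRCm38 chromosome 8, 123411424 to 123422015, plus strand), the neuronal beta tubulin, had 31.7 and 85.3 RPKM in iDamko, against 1.82 and 2.09 RPKM in iDam. Nefl, the light neurofilament, had 22.7 and 46.0 RPKM in iDamko, against 1.44 and 1.95 RPKM in iDam. The iDamko library numbered 2 was the higher one for both, and for Fst and Glul. Glul, glutamine synthetase, was among the 5 of the 622 genes with the highest mean RPKM over the pair. It had 188 and 440 RPKM in iDamko, against 45.6 and 47.4 RPKM in iDam. Its pseudogene Glns-ps1 had 49.9 and 114 RPKM in iDamko, against 11.9 and 12.4 RPKM in iDam, and reads may be shared between them. The glutamate transporter gene Slc1a3 rose to 23.1 and 28.0 RPKM in iDamko, against 10.6 and 7.15 RPKM in iDam.

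The 12 largest ratios among tested genes that rose also included Aldh1a1, a retinaldehyde dehydrogenase gene, with 1.63 and 2.23 RPKM in iDamko, against 0.0642 and 0.0922 RPKM in iDam. Ccdc141 had 10.7 and 8.20 RPKM in iDamko, against 0.446 and 0.389 RPKM in iDam. Cited4, a CBP/p300 partner gene, had 19.8 and 4.77 RPKM in iDamko, against 1.41 and 0.163 RPKM in iDam. The library numbered 1 was the higher one in both lines for Cited4. Besides these and the genes given above, the 12 held Sh3tc2, Slc8a3, Ccnb1ip1 and Arhgdig, from 8.55-fold to 13.8-fold higher in iDamko.

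Of the 622 genes, 52 were listed at 0 in both iDamko libraries and 4 in both iDam libraries. Most of the 52, 46 in all, were noncoding RNAs of the imprinted Dlk1-Dio3 locus (GRCm38 chromosome 12, 109541001 to 109743795). This locus expresses long noncoding RNAs, tandem C/D snoRNAs and a large miRNA cluster from the maternal chromosome, and is known to fall silent in some pluripotent stem cell lines. The table held 49 of its RNAs: 27 miRNA hairpins, 19 snoRNAs and the 3 long noncoding transcripts Meg3, Rian and Mirg. All 49 were lower in iDamko, beside 61.7% of all genes, and the 36 above the testing level all fell. The libraries were made from total RNA, so reads over a hairpin or snoRNA can come from the longer transcripts around it, and mature miRNAs were not measured.

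The most abundant of these RNAs in iDam was the SNORD113-family snoRNA ENSMUSG00000084549 (chromosome 12, 109649617 to 109649688), at 0 and 0 RPKM in iDamko, against 260 and 382 RPKM in iDam. Against a floor of 3 reads over both iDamko libraries it was at least 816-fold lower in iDamko. AF357425 was at 0 and 0 RPKM in iDamko, against 230 and 257 RPKM in iDam, at least 628-fold lower. The SNORD113 member ENSMUSG00000084487 was at 0 and 0 RPKM in iDamko, against 187 and 246 RPKM in iDam, at least 558-fold lower. These bounds cover counting error only, and over the 44 RNAs that allowed one they began at 1.99-fold. The snoRNA under the symbol Rian (ENSMUSG00000084691) was at 0 and 0 RPKM in iDamko, against 158 and 196 RPKM in iDam, and AF357355 at 0 and 0 RPKM in iDamko, against 84.8 and 137 RPKM in iDam. Of the 7 snoRNAs outside the locus, 6 rose in iDamko, beside 42.8% of all genes tested. Of these 6, Snord69, SNORD19B, SNORA36 and SNORA5 lie on chromosome 14, where 94.5% of the genes in the table were higher in iDamko. Among them SNORD19B had 759 and 1125 RPKM in iDamko, against 227 and 573 RPKM in iDam, and Snord69 had 631 and 735 RPKM in iDamko, against 238 and 384 RPKM in iDam. Both calls were lost under quantile normalization, without the iDamko library numbered 2 and without the iDam library numbered 1, and that of Snord69 also without the iDamko library numbered 1. The remaining one carries the family symbol SNORD113, and its identifier ENSMUSG00000088587 is placed on chromosome 9 in the annotation used here. It too was at 0 in both iDamko libraries, against 5.68 and 17.5 RPKM in iDam.

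The long transcripts were almost as low. Rian (ENSMUSG00000091793) had 0.00334 and 0.00266 RPKM in iDamko, against 21.4 and 22.5 RPKM in iDam. Mirg had 0.0138 and 0 RPKM in iDamko, against 2.73 and 2.39 RPKM in iDam. Meg3, which begins the noncoding stretch, had 0 and 0.000401 RPKM in iDamko, against 2.85 and 1.19 RPKM in iDam, and its call was also ended by quantile normalization (adjusted p = 0.0529). The 250 bases before its first RefSeq start (GRCm38.p6, chr12:109540746-109540995, plus strand) are shown because transcripts of the locus moved together. Capitals mark the 1 match to the RUNX motif spellings TGTGGT and TGCGGT on either strand. The window before the later RefSeq start of Meg3 (chr12:109545148-109545397), not shown, held 0 matches.

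Meg3 upstream: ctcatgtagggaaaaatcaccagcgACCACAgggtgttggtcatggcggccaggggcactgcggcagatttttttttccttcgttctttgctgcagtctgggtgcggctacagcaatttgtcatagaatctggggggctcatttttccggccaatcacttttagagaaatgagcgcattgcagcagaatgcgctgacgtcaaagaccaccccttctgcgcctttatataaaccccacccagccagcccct

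These spellings occurred in 18.6% of all 32851 RefSeq windows of the same length, in 19.6% of the 291 windows of coding genes lower in iDamko and in 15.7% of the 223 windows of coding genes higher in iDamko. A match is a description of the letters and not a binding site.

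The hairpins most abundant in iDam were Mir134 (6.37 and 3.00 RPKM), Mir485 (5.72 and 4.19 RPKM), Mir432 (mean 4.18 RPKM) and Mir431 (2.69 and 3.12 RPKM), chosen after their values were seen among hairpins with a RefSeq entry, and all were at 0 in both iDamko libraries. RefSeq (GRCm38.p6) held mature sequences for 26 of the 29 miRNA rows of the table. A mature product of each of the 4 is shown with its seed, bases 2 to 8, in capitals, since the seed sets which messenger RNAs a miRNA can pair with. miR-379-5p and miR-1193-5p are added as the 1 pair of products in the table with the same seed, GGUAGAC. miR-675-5p is made from H19 and not from this locus.
mmu-miR-134-5p: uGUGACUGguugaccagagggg
mmu-miR-485-3p: aGUCAUACacggcucuccucuc
mmu-miR-432: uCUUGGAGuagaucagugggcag
mmu-miR-431-5p: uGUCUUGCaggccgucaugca
mmu-miR-379-5p: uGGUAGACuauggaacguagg
mmu-miR-1193-5p: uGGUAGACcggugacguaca
mmu-miR-675-5p: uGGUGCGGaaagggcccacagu

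**Figure D3:**
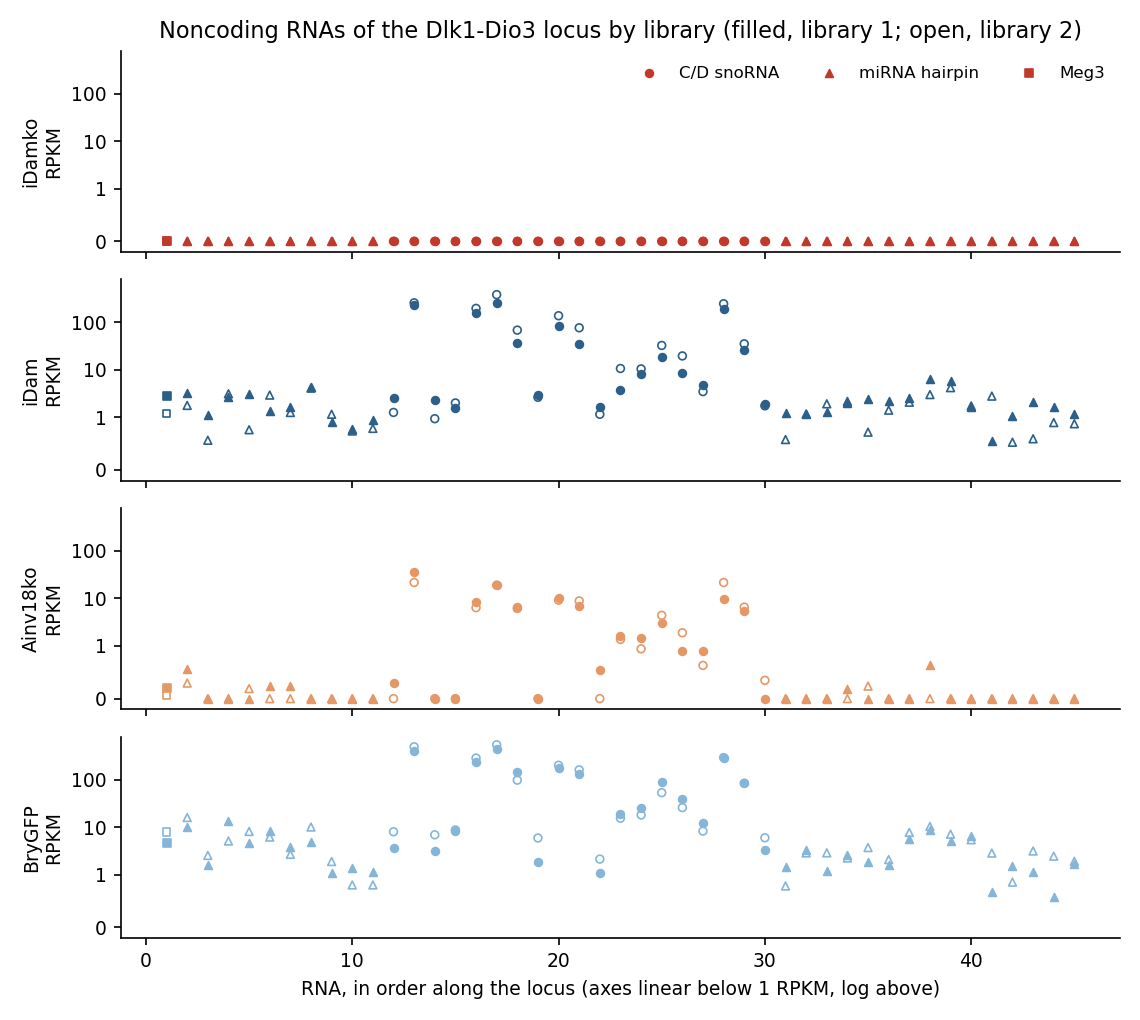
RPKM of the 45 positioned RNAs of the Dlk1-Dio3 locus in order along it, 1 panel per line, with library 1 filled and library 2 open, on axes that are linear below 1 RPKM and logarithmic above. iDamko lies at or near 0 throughout, Ainv18ko keeps low levels of the snoRNAs that are abundant in iDam and BryGFP.

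Other imprinted genes were lower as well, 13 of 13 list members including the locus transcripts above, beside 61.7% of all genes. Grb10, a growth-limiting adaptor of insulin signalling named here after its values were seen, had 0.786 and 0.249 RPKM in iDamko, against 85.01 and 99.1 RPKM in iDam, 178-fold lower in iDamko. The long noncoding RNA H19 had 7.43 and 4.04 RPKM in iDamko, against 36.0 and 42.5 RPKM in iDam. Its miRNA hairpin Mir675 had 5.83 and 2.83 RPKM in iDamko, against 34.5 and 39.7 RPKM in iDam, and reads of H19 and its hairpin cannot be told apart. Nnat, which encodes the membrane protein neuronatin, had 0.131 and 0.0758 RPKM in iDamko, against 1.37 and 0.525 RPKM in iDam. The log2 difference of Nnat, −0.79 ± 0.25 (SE; adjusted p = 0.0124), changed sign under quantile normalization, to 0.12, and the call was lost with a pseudocount of 5, with a filter at 5 RPKM, and without the iDamko library numbered 2 or the iDam library numbered 1.

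Of the 73 chromosome 14 genes in the table, 69 (94.5%) were higher in iDamko, against 164 of 539 (30.4%) on the other chromosomes. The median log2 ratio of the 69 was 1.35, and 1.84 for higher genes of other chromosomes. Ratios varied along the chromosome. From Mipep to Mtrf1 (GRCm38 chromosome 14, 60784573 to 79423587), a stretch bounded after its values were seen, all 27 genes were higher, with a median log2 ratio of 1.77 (quartiles 1.62 and 2.19). The 35 higher genes before it had a median of 0.85 (quartiles 0.72 and 1.21) and the 7 after it a median of 1.497 (quartiles 1.24 and 1.70). In Ainv18ko over BryGFP the medians were 0.83 before the stretch, 0.89 inside it and 1.46 after it. The knockouts were nearly level in the higher genes that were tested. Their median ratio of iDamko to Ainv18ko was 1.00 before the stretch, 1.02 inside it and 0.97 after it. The larger ratio of this pair inside the stretch thus lay mostly on the side of the wild types. Pbk, a mitotic kinase gene in the stretch, had 39.4 and 45.8 RPKM in iDamko, against 6.89 and 6.78 RPKM in iDam, while Ainv18ko had 34.0 and 42.4 RPKM and BryGFP 16.5 and 14.01 RPKM. Naa16, an acetyltransferase subunit gene, had 6.96 and 6.46 RPKM in iDamko, against 1.63 and 1.56 RPKM in iDam. Pbk and Naa16 were the only chromosome 14 genes to pass the test of the difference between pairs, and both were named after their values were seen. The part of this chromosome in the results for Gata4, Nefl, Ptk2b and Fzd3, which lie in the stretch, was not tested.

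**Figure D4:**
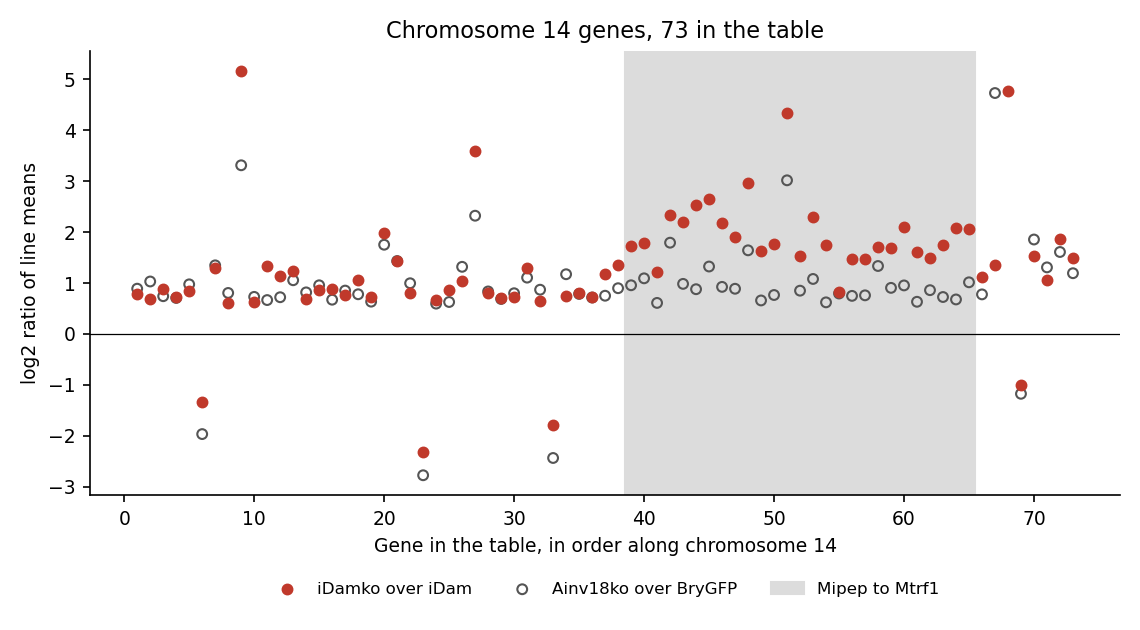
Log2 ratio of line means for the 73 chromosome 14 genes in order along the chromosome, for iDamko over iDam (filled) and Ainv18ko over BryGFP (open), with the Mipep to Mtrf1 stretch shaded; 1 gene has no ratio in the second pair because it is listed at 0. Inside the stretch the filled points have a median of 1.77 and the open ones of 0.89.

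The difference between the effect in this pair and that in Ainv18ko against BryGFP was tested in the same limma model. It passed in 35 of 360 genes (9.72%), with the iDamko effect above the other in 22 (6.11%) and below it in 13 (3.61%). The median difference over all 360 genes was 0.07. Genes that changed against a single wild type, or in opposite directions, had been left out by the authors' choice. This share and median therefore hold only within the genes kept, and do not show how often the pairs differ. Without the iDamko library numbered 1 it passed in 14 genes, without the iDamko library numbered 2 in 18, without the iDam library numbered 1 in 26 and without the iDam library numbered 2 in 17. Quantile normalization gave 51, with 27 above and 24 below. The balance turned round with a pseudocount of 0.1, at 13 above and 19 below, and with a filter at 5 RPKM, at 6 above and 14 below. Of the 35, 14 (40.0%) were genes of the Dlk1-Dio3 locus, 7 with a difference below 0 and 7 above 0, and 21 lay elsewhere. On the log2(RPKM + 1) scale the wild-type lines differed more than the knockout lines in 26 of the 35 and the knockout lines differed more in 9, of which 7 were snoRNAs of that locus. The authors' choice of genes took the 4 knockout libraries together against each wild type. It thus favoured genes on which the knockouts agree, so this split cannot show which lines differ more in general.

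For the abundant snoRNAs the gap lay between the knockouts. AF357425 was at 0 and 0 RPKM in iDamko and at 36.7 and 21.7 RPKM in Ainv18ko, against 394 and 490 RPKM in BryGFP. Over the 46 locus RNAs at 0 in iDamko, 14 were above 0 in both Ainv18ko libraries, 11 in 1 of them and 21 in neither. All 49 were lower in iDam than in BryGFP, with a median ratio of 0.488, so the wild-type lines differed here as well. In the 7 locus genes that passed with a difference of effects above 0, the wild types differed more than the knockouts. These genes fell less in this pair, with differences from 0.92 for Mir758 to 1.76 for SNORD113 ENSMUSG00000087885.

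For coding genes that passed, the gap lay mostly between the wild types, a side that the authors' choice of genes favoured. Tubb3 overlapped between the knockouts, at 31.7 and 85.3 RPKM in iDamko and 29.1 and 70.7 RPKM in Ainv18ko, but had 1.82 and 2.09 RPKM in iDam and 18.1 and 15.0 RPKM in BryGFP (difference of effects 2.76 ± 0.68, SE; adjusted p = 0.033). Nnat showed the largest difference, 4.13 ± 0.35 (SE; adjusted p = 0.000246): BryGFP had 26.6 and 36.5 RPKM where iDam had 1.37 and 0.525 RPKM. The endothelial genes Clec14a and Acvrl1 fell further in this pair, by −1.53 ± 0.32 (SE; adjusted p = 0.0222) and −1.41 ± 0.32 (SE; adjusted p = 0.026) relative to the other. The other endothelial markers did not pass this test (adjusted p = 0.154 for Cldn5 and 0.93 for Aplnr, limma). Clec14a had 4.08 and 5.57 RPKM in BryGFP and Acvrl1 had 12.5 and 13.7 RPKM in BryGFP, both below iDam. The mesenchymal cadherin gene Cdh11 fell less in this pair, with 12.8 and 19.8 RPKM in BryGFP against 3.43 and 2.78 RPKM in iDam (difference of effects 2.01 ± 0.36, SE; adjusted p = 0.0105). The fall of Cdh11 in iDamko was itself lost under quantile normalization, with a pseudocount of 5, without the iDamko library numbered 2 and without the iDam library numbered 1. Gfi1 and Itgb3 also fell less, with differences of 1.03 ± 0.24 (SE; adjusted p = 0.026) and 1.37 ± 0.27 (SE; adjusted p = 0.0172).

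The summed endothelial level was 124 and 122 RPKM in iDam and 53.3 and 57.7 RPKM in BryGFP. The summed smooth muscle level was 156 and 149 RPKM in iDam and 482 and 675 RPKM in BryGFP. In the knockouts the endothelial sums were 27.2 and 22.1 RPKM in iDamko and 27.8 and 14.7 RPKM in Ainv18ko, which overlapped. The smooth muscle sums, 29.3 and 26.6 RPKM in iDamko and 81.3 and 60.3 RPKM in Ainv18ko, did not overlap. Which cells the sorted wild-type populations held was not measured, and the part of such a makeup in these differences was not tested.

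**Figure D5:**
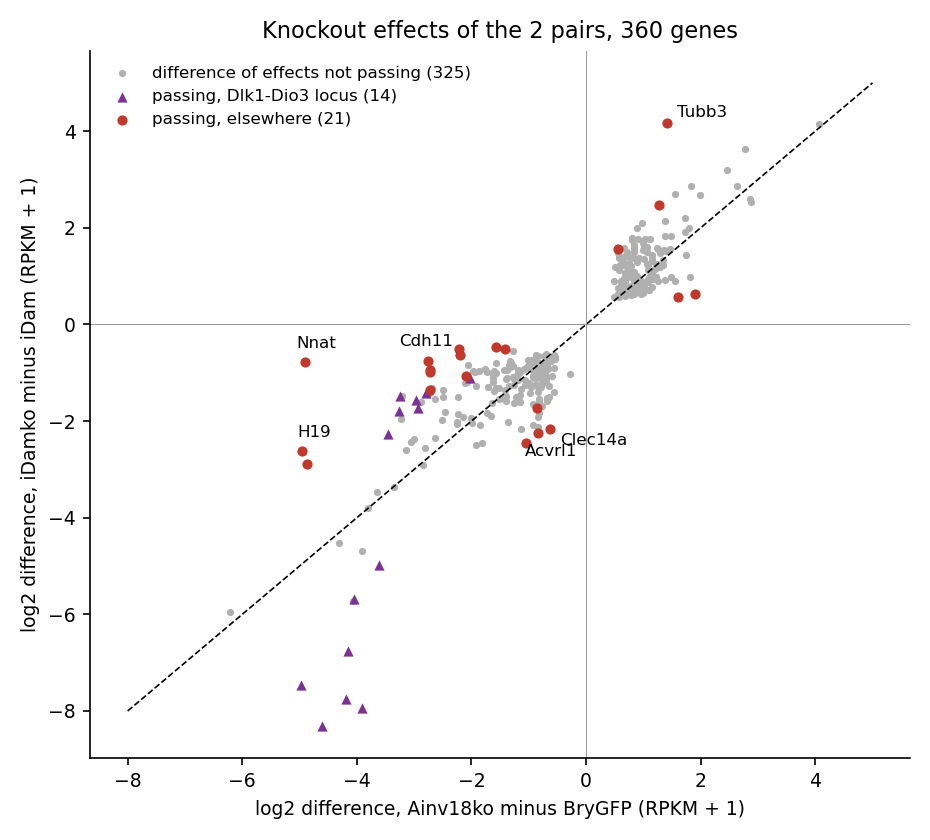
Log2 differences of 360 genes in iDamko against iDam (vertical axis) and Ainv18ko against BryGFP (horizontal axis), on log2(RPKM + 1), with equal effects as a dashed line. The 14 passing genes of the Dlk1-Dio3 locus (triangles) and 21 passing genes elsewhere (large circles) lie away from the line.

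Of the 360 genes tested, 3 separated but did not pass. Emb, a cell adhesion molecule of the immunoglobulin family, had 26.2 and 67.1 RPKM in iDamko, against 17.4 and 24.9 RPKM in iDam (adjusted p = 0.058, limma). The proteasome gene Psmc6, on chromosome 14, had 67.5 and 109 RPKM in iDamko, against 42.1 and 59.8 RPKM in iDam (adjusted p = 0.0569, limma). The spliceosomal U4 had 11.1 and 9.77 RPKM in iDamko, against 12.4 and 59.8 RPKM in iDam (adjusted p = 0.122, limma). In each the libraries of one line lay far apart. Emb and Psmc6 passed without the iDamko library numbered 1, and U4 passed without the iDam library numbered 1 (adjusted p = 0.0167, limma). With the library number as a block, Emb and Psmc6 passed as well (adjusted p = 0.0241 and 0.00361).

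Libraries within a line differed by a median of 0.24 in iDamko and 0.22 in iDam on the log2(RPKM + 1) scale, and by more than 2-fold in 10 and 13 of 360 genes. Same-numbered libraries of the knockouts were closer by this median only, at 0.14 between iDamko and Ainv18ko for both numbers. More than 2-fold differences were found in 16 and 14 genes between them, against 10 within each knockout line. Their correlations were 0.948 and 0.951, against 0.980 within iDamko and 0.976 within Ainv18ko. iDamko and iDam libraries of the same number differed by medians of 1.20 and 1.12.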

How the data were processed

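Total RNA of sorted hemogenic endothelium was sequenced on a SOLiD 5500XL, per the series' design text. The authors' deposited table holds RPKM per library, identified as such from the values, with the authors' log2 folds, p-values and FDR (p-value adjusted) per comparison; the deposited log2 folds and p-values are not reported here. The submitters' processing notes name edgeR and mm9; no aligner, counting method or annotation is given in the sources used here. The 4 repeated knockout columns were not used. Columns name lines, so libraries are numbered as the columns are.

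Gene positions came from GENCODE (GRCm38), matched by gene ID for 612 of 622 genes, and no mm9 coordinate was used. The test was limma (version 3.58.1, R 4.3.3) on log2(RPKM + 1), with its prior variance following mean level. This scale understates changes of weak genes, and 360 genes averaging 1 RPKM or more were tested. All 8 libraries and 1 mean per line entered the fit, and p-values were Benjamini-Hochberg adjusted over the 360 genes. A planned count test was not used because the table holds no counts. The procedure was tested on simulated data. Depths were implied from low values that step by 1 read, allowing 0.06 read. Samples with 2 libraries per line give p-values that measure only the spread between these libraries.

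Genes were named by rule. These were the 12 largest rises and 12 largest falls among those tested, and up to 4 per gene list. The 8 largest differences between pairs and genes tested that did not pass were added. So were the 5 of the 622 genes with the highest mean RPKM over the pair. The 12 largest falls were all snoRNAs at 0. Members and the 31 lists were chosen with earlier results of these data known. Of these 28 had a member in the table; those without were HoxC, sort markers, and X inactivation and Y-linked genes.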

Additional observations from a re-analysis of the deposited data

Results flagged for a closer look

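For 16 named genes the effect in iDamko against iDam differed from that in Ainv18ko against BryGFP by the limma test of the difference, with a Benjamini-Hochberg adjusted p under 0.05 over 360 genes. Values are differences of log2(RPKM + 1) effects, so a value below 0 means that iDamko fell further against iDam or rose less. For RNAs at 0 in iDamko they depend on the pseudocount and are no bound.

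Among snoRNAs of the Dlk1-Dio3 locus the difference was −4.02 for AF357425, −3.70 for SNORD113 ENSMUSG00000084549, −3.55 for SNORD113 ENSMUSG00000084487, −2.61 for AF357355, −2.50 for Rian ENSMUSG00000084691, −1.64 for SNORD113 ENSMUSG00000064496 and −1.37 for SNORD113 ENSMUSG00000064726. The endothelial genes Clec14a and Acvrl1 had differences of −1.53 and −1.41. The effect in iDamko was the less negative one for Gfi1 by 1.03, Itgb3 by 1.37, Pdgfrb by 1.79, Cdh11 by 2.01, H19 by 2.34 and Nnat by 4.13. Tubb3 rose more in iDamko, by 2.76.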

How the results depend on the processing

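Calls for iDamko against iDam, 357 of 360, were 591 of 622 with no filter and 185 of 190 with a filter at 5 RPKM, 345 and 357 under the other pseudocounts, and 306 to 330 without 1 library. Quantile normalization gave 283, with 53.4% of calls higher in place of 43.1%, and moved the median log2 difference from −0.79 to −0.14, a shift of 0.65. It alone reversed a named gene, Nnat (0.12). Difference-of-effect calls, 35, were 20 with a filter at 5 RPKM (6 above 0, 14 below), 32 with a pseudocount of 0.1 (13 above, 19 below) and 14 to 26 without 1 library. Separation, 619 genes, was 360 when limited to genes averaging 1 RPKM or more, which tests fewer genes, 508 under quantile normalization (250 higher, 258 lower) and 620 to 621 without 1 library.

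With the number in the column name as a replicate block, 359 genes passed for the pair and 53 for the difference. With 2 pairs, the columns tie libraries of different lines by a number only, and the main model left this number out. Some variation went with it: the differences of libraries 2 and 1 in iDamko and iDam correlated at 0.409 across genes, which are not independent. What the number stands for is not given in the sources used here. Counted without the Dlk1-Dio3 locus, a choice made after seeing the data, 21 differences passed. Of 79 named genes tested, 13 lost their call under quantile normalization, and the cause was not tested. Depth limits genes under 1 RPKM, where 1 read weighs most.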
